A study of Mus musculus with 45 samples.

Results

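The 37 genes described here encode the contractile apparatus of striated muscle, and they were read in limb buds cultured with bisphenol A (BPA), a plastics monomer that binds estrogen receptors. They were taken as the rows whose gene symbol equals a member of a given list, a rule that uses no measured value, and all 37 of 37 symbols were found among 36300 genes. By structure, 11 belong to the thick filament, 13 to the thin filament, 7 to the Z-disc and 3 to the M-band, with titin as 1 and assembly factors as 2 further genes. By isoform, 5 are developmental, 7 fast and 7 slow forms, and 18 have no such class.

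In a sarcomere, thick filaments of myosin slide along thin filaments of actin, and the troponin complex on the thin filament makes this step depend on calcium. Z-discs anchor the thin filaments, the M-band links the thick filaments at the middle, and titin spans from the one to the other. In the limb, progenitors that migrate in from the somites become myoblasts and fuse into primary myotubes, which first use embryonic and slow isoforms. As fibres mature, perinatal and then adult isoforms replace the embryonic ones.

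Forelimb buds came from CD1 mouse embryos, an outbred stock, at gestation day 13, and limbs of male and female embryos were pooled. They were kept in glass bottles in BGJb medium diluted with a salt solution, with ascorbic acid and gentamycin, for 3, 24 or 48 h. The 9 groups were vehicle (dimethyl sulfoxide), 10 µM BPA and 50 µM BPA at each time, with 5 libraries each and 45 in all. The series title is about endochondral ossification, in which bone replaces cartilage, so muscle was 1 tissue among several in whole limb buds, and no muscle cells were sorted. Nothing in the labels ties a library to its own litter or culture day, so the p-values reflect how far these 5 libraries spread, and part of that spread may be technical.

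Libraries held 17.54 to 27.12 M counts (M for mega). The members took a small share of them, and that share is given for each group as the lowest, the median and the highest library. At 3 h the share was 0.233, 0.246 and 0.257% in vehicle cultures, 0.235, 0.271 and 0.315% with 10 µM and 0.248, 0.252 and 0.269% with 50 µM. At 24 h it was 0.475, 0.771 and 0.857% in vehicle cultures, 0.463, 0.555 and 0.706% with 10 µM and 0.355, 0.425 and 0.461% with 50 µM. At 48 h it was 0.681, 0.924 and 1.023% in vehicle cultures, 0.517, 0.796 and 0.860% with 10 µM and 0.284, 0.413 and 0.460% with 50 µM. The 50 µM libraries thus lay below every vehicle library at 24 and 48 h and overlapped them at 3 h, where the highest 50 µM library stood above all of vehicle. The mean share with 50 µM was 1.04 times that of vehicle at 3 h, 0.591 times at 24 h and 0.457 times at 48 h, and the mean share with 10 µM was 1.11, 0.833 and 0.882 times that of vehicle at the same times. Replicates 1 and 2 held the 2 lowest shares in 6 of the 6 groups of 24 and 48 h and in 0 of the 3 groups of 3 h, and the labels name no batch for these numbers. In the 10 µM group of 48 h, replicate 2 stood apart with a share of 0.517%.

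**Figure D1:**
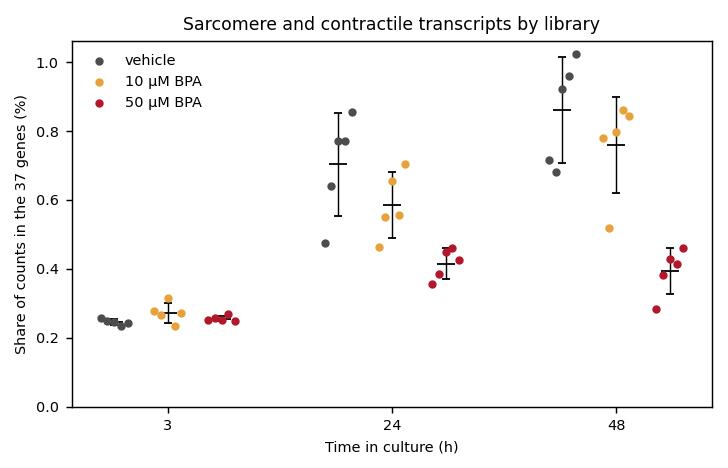
Share of each library's counts in the 37 sarcomere genes, in percent, for vehicle, 10 µM and 50 µM cultures at 3, 24 and 48 h; each point is 1 library, in order of replicate number, and black bars give the mean ± SD of 5 libraries. The 50 µM libraries reach at most 0.461% at 24 h and 0.460% at 48 h, below every vehicle library of the same time.

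The RNA carried the marks of skeletal muscle. In vehicle cultures of 48 h, the myogenic regulator Myog stood at 155 to 226 CPM (CPM are counts scaled to the depth of each of the 45 libraries) and the calcium release channel Ryr1 at 114 to 199 CPM. In the same libraries Myod1 stood at 84 to 135 CPM, Pax7 of muscle progenitors at 11.3 to 17.1 CPM, Cacna1s at 32.4 to 50.3 CPM and Chrna1 at 56.6 to 88 CPM. Several members are also genes of the heart, but 4 of the 6 cardiac markers listed were near 0: atrial myosin light chain Myl7 reached at most 0.258 CPM, the natriuretic peptide gene Nppa 0.361 CPM and the transcription factors Nkx2-5 and Tbx20 0.173 and 0.307 CPM in any of the 45 libraries. The other 2, the transcription factor Gata4 and the cardiac-type calcium release channel Ryr2, were low in every library, at 0.745 to 3.28 CPM and 0.771 to 3.19 CPM, and their part in these values was not tested. In these bulk samples, fewer muscle cells and less RNA per muscle cell cannot be told apart.

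The promoters of 4 members that are described below are printed to show the kind of sequence around the annotated starts of genes of this class. They are those of both sarcomeric alpha-actins, and of Csrp3 and Myoz2 of the Z-disc. Each runs from 250 bases before to 50 bases after an annotated start, from RefSeq on GRCm38.p6, and all 4 lie on the minus strand. The positions are chr8:123894726-123895025 for Acta1, chr2:114052826-114053125 for Actc1, chr7:48848002-48848301 for the first of 2 Csrp3 entries and chr3:123034938-123035237 for Myoz2. Capitals mark matches to the E-box CANNTG, which myogenic factors bind, the MEF2 box and the CArG box of serum response factor, searched on both strands. They also mark the TATA box TATAAA, searched only on the strand shown.
Acta1: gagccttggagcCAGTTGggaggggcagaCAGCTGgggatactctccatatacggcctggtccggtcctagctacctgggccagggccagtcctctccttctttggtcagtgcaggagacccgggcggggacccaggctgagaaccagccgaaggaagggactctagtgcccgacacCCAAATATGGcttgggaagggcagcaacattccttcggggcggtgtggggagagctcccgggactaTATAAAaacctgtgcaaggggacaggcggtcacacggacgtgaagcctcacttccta
Actc1: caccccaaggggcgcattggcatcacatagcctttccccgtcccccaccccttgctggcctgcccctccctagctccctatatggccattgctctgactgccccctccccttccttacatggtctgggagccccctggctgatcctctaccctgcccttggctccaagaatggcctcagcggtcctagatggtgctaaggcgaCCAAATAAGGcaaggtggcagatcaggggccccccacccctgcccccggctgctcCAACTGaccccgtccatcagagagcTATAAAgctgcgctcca
Csrp3: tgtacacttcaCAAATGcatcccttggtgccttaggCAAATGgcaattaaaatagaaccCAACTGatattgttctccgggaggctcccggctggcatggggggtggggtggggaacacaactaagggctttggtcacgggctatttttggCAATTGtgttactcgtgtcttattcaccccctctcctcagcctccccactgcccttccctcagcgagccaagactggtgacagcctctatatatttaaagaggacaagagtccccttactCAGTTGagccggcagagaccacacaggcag
Myoz2: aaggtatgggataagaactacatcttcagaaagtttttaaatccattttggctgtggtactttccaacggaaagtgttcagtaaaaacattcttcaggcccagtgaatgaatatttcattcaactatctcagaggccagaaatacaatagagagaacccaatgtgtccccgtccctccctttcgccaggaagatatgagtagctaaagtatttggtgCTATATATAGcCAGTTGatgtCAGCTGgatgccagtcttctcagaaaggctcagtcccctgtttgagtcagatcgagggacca
Both actin promoters hold 1 CArG box and 1 TATAAA, with 2 E-boxes in Acta1 and 1 in Actc1, the Csrp3 promoter holds 5 E-boxes, and the Myoz2 promoter holds a MEF2 box followed by 2 E-boxes. Counted from the annotated start, TATAAA begins at -7 in Acta1 and at 33 in Actc1. The E-box of Actc1 begins at 8 and the last E-box of Csrp3 at 20, so these and the TATAAA of Actc1 lie after that start. Of the 37 members, 30 have a promoter in the RefSeq table used. The E-box CANNTG stood in 83.3% of these 30, against 72.1% of all 27025 genes with a promoter there, and its form CAGCTG, a subset of CANNTG, in 43.3% against 16.1%. The MEF2 box stood in 16.7% against 3.26%, the CArG box in 13.3% against 1.57%, and TATAAA in 20.0% against 8.88%. A match describes the letters in this window and shows no binding.

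The first question was whether BPA changed the contractile genes of the cultures relative to vehicle at the same time. At 3 h with 50 µM, 0 of 34 tested members passed the test, at an adjusted p under 0.05 in edgeR's quasi-likelihood test, while 1.41% of all tested genes did. DESeq2 also called 0 of them, and 3 had an unadjusted p under 0.05, namely Acta1, Myh3 and Mybph, all with estimates above 0. At 24 h, 26 of 35 tested members fell and 0 rose, against 3.47% of all genes called in either direction and 2.1% lower. Ckm and Myh2, neither called, entered the 24 h test although some of their 50 µM libraries were under the minimum of the filter on low counts. Among the 33 members whose libraries all reached that minimum, 26 fell, against 3.86% of such genes called, with a median log2 fold change of -0.80, against 0.00 over all genes tested. In 15 of these 33 every 50 µM library lay below every vehicle library, which holds for 2.97% of such genes (2.84% of all genes). At 48 h, 35 of 36 tested members were called lower and 0 higher, against 9.18% of all genes called and 5.3% lower. Of the 35, Ckm, Csrp3, Lmod2 and Myh2 had 50 µM libraries under the minimum and passed the filter with the help of the vehicle libraries, so that they add nothing to the count. Without them 31 of 32 fell, against 9.91% of genes whose libraries all reached the minimum, with a median of -1.19, against 0.00 over all genes tested. In 30 of the 32 the groups did not overlap, against 5.05% of such genes (4.83% of all genes). The 1 member tested and not called was Myh1. With 1 library left out at a time, the full count was 21 to 33 at 24 h and 34 to 35 at 48 h. Ckm, Lmod2 and Tnnc2 were not tested at 3 h, Lmod2 and Tnnc2 at 24 h and Tnnc2 at 48 h.

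Over the members whose libraries all reached the filter's minimum, the falls were spread over the parts of the sarcomere. In the thick filament, 8 of 10 such genes fell at 24 h and 9 of 10 at 48 h, with medians of -0.83 and -1.34 on the log2 scale. In the thin filament, 9 of 11 fell at 24 h and 11 of 11 at 48 h, with medians of -0.67 and -0.95. In the Z-disc, 6 of 7 fell at 24 h and 6 of 6 at 48 h, with medians of -0.84 and -1.33, and in the M-band 2 of 2 at both times, with medians of -1.08 and -1.55. By isoform class, 5 of 5 developmental genes fell at both times (medians -0.82 and -1.14). Of the fast genes, 4 of 5 fell at both times (medians -0.99 and -1.26), and of the slow genes 6 of 7 at 24 h and 7 of 7 at 48 h (medians -0.78 and -1.21). No difference between classes was tested.

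**Figure D2:**
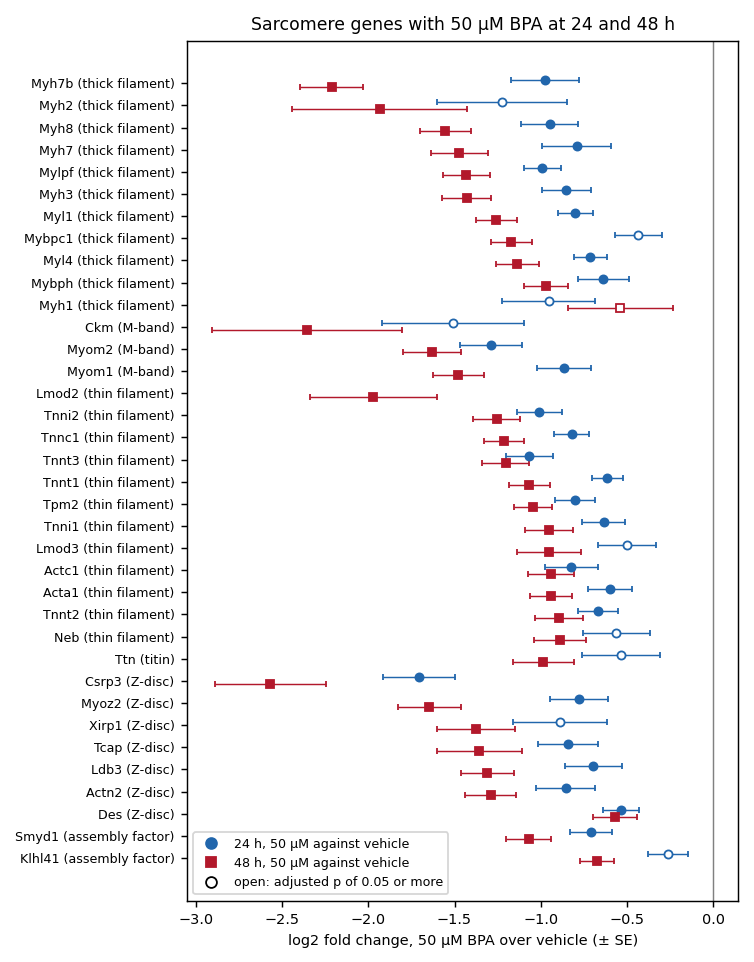
log2 fold change of 50 µM over vehicle at 24 and 48 h for each tested sarcomere gene, grouped by its place in the sarcomere; points are edgeR estimates and bars their standard errors. The estimates lie left of 0 at both times, and Csrp3 (-1.70 and -2.57) lies farthest to the left of the called genes. At 48 h replicate 1 of 50 µM was under the filter's minimum in Csrp3.

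Across the 35 members tested at both times, which used different vehicle and 50 µM libraries, the log2 fold changes at 24 and 48 h followed each other (Pearson r = 0.80, Spearman rho = 0.70, across genes, which are not independent replicates), and 34 of 35 were lower at 48 h. The exception was Myh1. Ckm, Csrp3 and Myh2 are among the 35 and had 50 µM libraries under the filter's minimum at 24 or 48 h. Values without them, or over all genes, are not given, so r and rho are not read as a trait of the members.

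**Figure D3:**
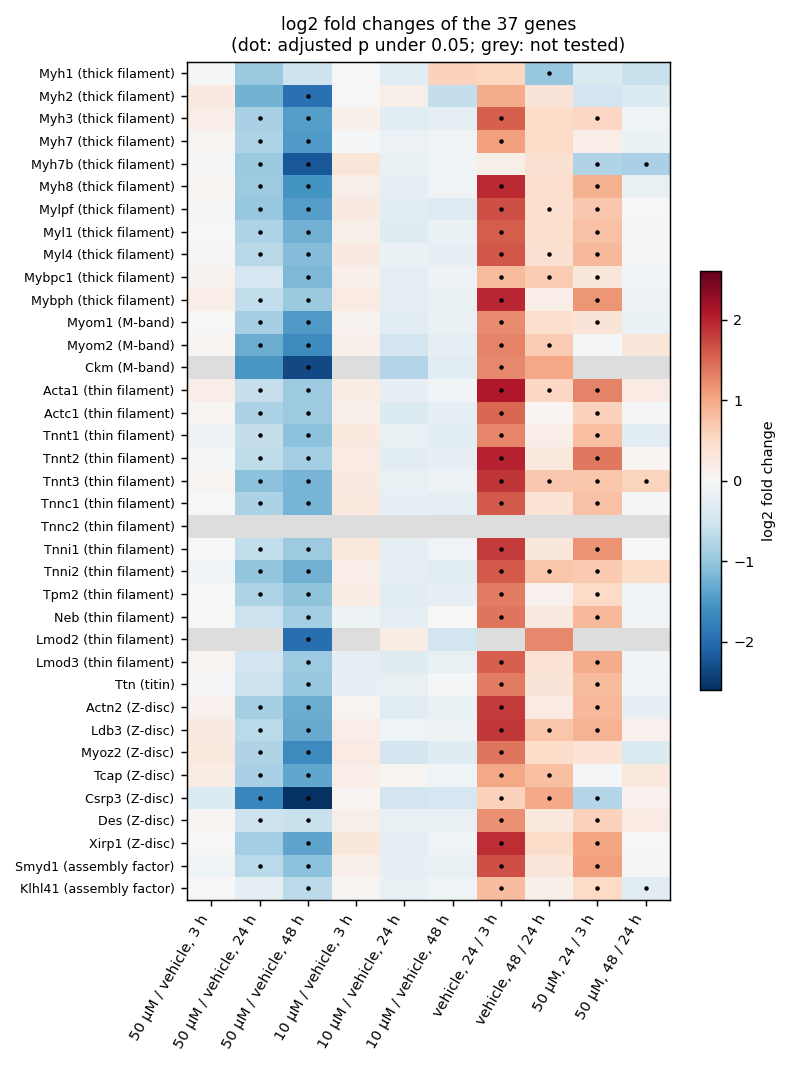
log2 fold changes of the 37 sarcomere genes (rows) in 10 comparisons (columns), with a dot for an adjusted p under 0.05 and grey for a gene not tested. The columns of 50 µM against vehicle hold 0, 26 and 35 dots at 3, 24 and 48 h. Of these, 31 at 48 h belong to genes whose libraries all reached the filter's minimum. Those of 10 µM hold 0 at each time, in fits without the replicate number as a block. With that block 10 members were called with 10 µM at 24 h.

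The myosin heavy chains form the motor of the thick filament. Per length, embryonic Myh3 was by far the highest of the 6 measured, with 83.7 ± 16.6 FPKM in 50 µM cultures and 225 ± 41 FPKM in vehicle cultures of 48 h (SD, n = 5 each; FPKM are the authors' values per length and depth). At 3 h, Myh3 had 290.4, 308, 332, 351 and 378 CPM in vehicle cultures, 331, 357, 364, 386 and 402 CPM with 10 µM and 343, 359, 385, 391 and 392 CPM with 50 µM. Myh3 at 24 h stood at 651, 832, 1001, 1114 and 1261 CPM in vehicle cultures, at 605, 763, 766, 864 and 996 CPM with 10 µM and at 437, 515, 541, 599 and 602 CPM with 50 µM. The 48 h values of Myh3 were 1077, 1122, 1466, 1545 and 1623 CPM in vehicle cultures, 742, 1221, 1242, 1245 and 1258 CPM with 10 µM and 342, 511, 526, 565 and 607 CPM with 50 µM. The 50 µM libraries overlapped the vehicle libraries at 3 h and lay below all of them at 24 and 48 h. The log2 fold change of Myh3 was -0.85 ± 0.14 (SE, adjusted p = 0.00421) at 24 h and -1.43 ± 0.14 (SE, adjusted p = 2.86e-05) at 48 h. Perinatal Myh8, the form that follows Myh3 in maturing fibres, ran lower. Myh8 at 3 h stood at 68.9, 74.2, 78.7, 80.6 and 88.6 CPM in vehicle cultures, at 67, 85.5, 85.9, 93.5 and 105 CPM with 10 µM and at 71.1, 75, 85, 86.8 and 88.4 CPM with 50 µM. The 24 h values of Myh8 were 186, 267, 297, 347 and 394 CPM in vehicle cultures, 187, 224, 233, 289 and 317 CPM with 10 µM and 119, 144, 153, 159 and 199 CPM with 50 µM. After 48 h, counts of Myh8 came to 321, 351, 423, 449.5 and 452 CPM in vehicle cultures, to 249, 390.3, 399, 405 and 427 CPM with 10 µM and to 80.7, 143, 152, 153 and 155 CPM with 50 µM. Its libraries with 50 µM overlapped vehicle at 24 h by 1 value and lay below vehicle at 48 h. Myh8 fell by 0.95 on the log2 scale at 24 h (SE 0.17, adjusted p = 0.00585) and by 1.55 at 48 h (SE 0.15, adjusted p = 2.73e-05).

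Slow myosin was affected at the same times. Myh7 encodes the slow heavy chain of type I fibres and of the heart ventricle. The 3 h values of Myh7 were 18.9, 24.3, 24.7, 25.9 and 26.8 CPM in vehicle cultures, 21.5, 23.1, 24.4, 24.9 and 25.5 CPM with 10 µM and 19.7, 24.6, 27.8, 28 and 28.1 CPM with 50 µM. After 24 h, counts of Myh7 came to 29.98, 43.3, 47.8, 62.9 and 66.3 CPM in vehicle cultures, to 34.7, 41.4, 47.6, 48.8 and 52.2 CPM with 10 µM and to 20.3, 23.4, 30.2, 32.1 and 38.8 CPM with 50 µM. At 48 h, Myh7 had 53.8, 55.3, 80.4, 80.6 and 86 CPM in vehicle cultures, 37.6, 58.8, 76.2, 78.7 and 83 CPM with 10 µM and 15.6, 26, 28.2, 28.9 and 30.1 CPM with 50 µM. With 50 µM the values overlapped vehicle at 24 h and lay below all vehicle values at 48 h. Its estimates were -0.79 ± 0.20 (SE, adjusted p = 0.0417) at 24 h and -1.47 ± 0.17 (SE, adjusted p = 5.85e-05) at 48 h, and the 24 h call was lost in 8 of the refits that left out 1 library, with an adjusted p of up to 0.121. Of the exon bases of Myh7, 13.3% are shared with antisense genes. Myh7b, an ancestral slow-type heavy chain, had the third lowest estimate of all members at 48 h. Those lower were Csrp3 and Ckm, which had 50 µM libraries under the filter's minimum. After 3 h, counts of Myh7b came to 21, 21.4, 25.3, 25.8 and 33.1 CPM in vehicle cultures, to 27.8, 29, 31.9, 33.7 and 37 CPM with 10 µM and to 18.4, 24, 24.6, 25.2 and 31.4 CPM with 50 µM. At 24 h, Myh7b had 24.2, 25.2, 26.8, 31.8 and 32.5 CPM in vehicle cultures, 21.7, 22.2, 24.3, 27 and 29.4 CPM with 10 µM and 7.88, 11.6, 15.3, 15.7 and 21 CPM with 50 µM. Myh7b at 48 h stood at 25.5, 33.8, 38.5, 39.7 and 47.1 CPM in vehicle cultures, at 29.2, 32, 32.8, 39.8 and 41.5 CPM with 10 µM and at 6.24, 6.51, 6.67, 9.42 and 11.2 CPM with 50 µM. All 50 µM values lay below all vehicle values at 24 and 48 h. Myh7b stood at 8.01 ± 2.19 CPM with 50 µM and 36.9 ± 7.97 CPM with vehicle at 48 h (SD, n = 5 each), a log2 fold change of -2.21 ± 0.18 (SE, adjusted p = 8.73e-06), after -0.97 ± 0.20 (SE, adjusted p = 0.0133) at 24 h.

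Adult fast myosins were scarce. Myh1 encodes the fast IIx heavy chain. At 3 h, Myh1 had 5.18, 5.2, 5.56, 5.74 and 7.2 CPM in vehicle cultures, 4.55, 4.66, 6.08, 6.64 and 7.32 CPM with 10 µM and 3.28, 3.8, 5.65, 7.03 and 8.78 CPM with 50 µM. Myh1 at 24 h stood at 5.27, 6.9, 7.05, 9.14 and 13.8 CPM in vehicle cultures, at 5.29, 6.02, 6.69, 7.45 and 8.85 CPM with 10 µM and at 2.41, 3.71, 4.18, 5.25 and 6.21 CPM with 50 µM. The 48 h values of Myh1 were 2.5, 3.43, 4.0, 4.23 and 7.15 CPM in vehicle cultures, 3.36, 3.46, 4.33, 7.45 and 13.9 CPM with 10 µM and 1.64, 2.13, 2.58, 3.92 and 4.48 CPM with 50 µM. The groups overlapped at each time. Its estimates with 50 µM did not pass the test, with -0.95 ± 0.27 (SE, adjusted p = 0.0707) at 24 h and -0.54 ± 0.31 (SE, adjusted p = 0.319) at 48 h. However, the 24 h estimate passed with DESeq2 (adjusted p = 0.0107), without the filter on low counts (0.0213) and without replicate 1 of vehicle (0.0302). It also passed with the replicate number as a block (0.0108). Of its exon bases, 8.11% lie opposite an antisense gene. Myh2, the fast IIa heavy chain, ran at 0.102 to 1.11 CPM with 50 µM and 0.585 to 2.42 CPM with vehicle at 48 h. It fell by 1.93 on the log2 scale (SE 0.51, adjusted p = 0.025), and 6 refits that left out 1 library lost that call, with an adjusted p of up to 0.0672.

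Myosin light chains stabilise and tune the motor. Mylpf encodes the fast regulatory light chain. Mylpf at 3 h stood at 93.8, 99, 104, 107 and 110.1 CPM in vehicle cultures, at 86, 108, 116, 129 and 168 CPM with 10 µM and at 93.1, 102, 102, 103 and 105 CPM with 50 µM. The 24 h values of Mylpf were 244.4, 279, 355, 358 and 389.9 CPM in vehicle cultures, 230.3, 235, 238, 307 and 315 CPM with 10 µM and 158, 158, 158, 159 and 186 CPM with 50 µM. After 48 h, counts of Mylpf came to 348, 394, 454, 486 and 519 CPM in vehicle cultures, to 219, 356, 377, 387 and 411 CPM with 10 µM and to 108, 166, 172, 184 and 191 CPM with 50 µM. At 24 h 4 of the 5 libraries with 50 µM lay within 2 CPM of one another and replicate 4 lay above them, yet all were below vehicle, as they were at 48 h. Mylpf fell by 0.99 on the log2 scale at 24 h (SE 0.11, adjusted p = 0.00024) and by 1.43 at 48 h (SE 0.14, adjusted p = 2.53e-05). Myl4 encodes the essential light chain of embryonic muscle and the atrium. The 3 h values of Myl4 were 41.5, 45.5, 49.7, 56.3 and 57.4 CPM in vehicle cultures, 45.7, 49.2, 54.1, 61.9 and 83.5 CPM with 10 µM and 42.5, 50.8, 52.8, 55.6 and 55.9 CPM with 50 µM. After 24 h, counts of Myl4 came to 119, 129.96, 165, 168 and 175 CPM in vehicle cultures, to 116, 117, 123, 151 and 161 CPM with 10 µM and to 87.9, 88, 93.4, 95.2 and 98.2 CPM with 50 µM. At 48 h, Myl4 had 166, 187, 205, 219 and 220.0 CPM in vehicle cultures, 108, 178, 179.6, 194 and 197 CPM with 10 µM and 63.4, 78.4, 102, 102 and 109 CPM with 50 µM. The groups were apart at 24 and 48 h. Its log2 fold change was -0.71 ± 0.10 (SE, adjusted p = 0.000878) at 24 h and -1.14 ± 0.13 (SE, adjusted p = 5.26e-05) at 48 h. Myl1, the fast essential light chain, fell by 0.80 and 1.26 at the same times (SE 0.10 and 0.12). The myosin-binding proteins sit on the thick filament: slow Mybpc1 did not pass at 24 h, with -0.43 ± 0.14 (SE, adjusted p = 0.113), and fell by 1.17 at 48 h (SE 0.12). The 24 h estimate of Mybpc1 passed without the filter on low counts (adjusted p = 0.0345), with DESeq2 (0.0387), in the fit of all 45 libraries (0.0453) and without replicate 1 of vehicle (0.00805). It also passed with the replicate number as a block (0.0024). Mybph fell by 0.64 at 24 h (SE 0.15) and by 0.97 at 48 h (SE 0.13). Its 24 h call was lost in 7 refits that left out 1 library, and 49.9% of its exon bases are shared with Adora1.

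In the M-band, Myom2 encodes the myomesin of fast and adult fibres and had the largest fall at 24 h outside the Z-disc among called members. After 3 h, counts of Myom2 came to 17.3, 18.2, 18.4, 20.8 and 22.5 CPM in vehicle cultures, to 18.1, 19.3, 21.8, 22.2 and 26.2 CPM with 10 µM and to 17.5, 18.9, 21.1, 21.4 and 22.1 CPM with 50 µM. At 24 h, Myom2 had 28.7, 40.2, 52.1, 56.4 and 58.9 CPM in vehicle cultures, 28, 30.7, 31.7, 38.4 and 39.7 CPM with 10 µM and 15.4, 17.4, 18.4, 19.95 and 25.8 CPM with 50 µM. Myom2 at 48 h stood at 54.7, 58.7, 82.7, 83.3 and 95.3 CPM in vehicle cultures, at 38.4, 62.3, 67, 72.2 and 72.6 CPM with 10 µM and at 15.1, 23.4, 26.1, 28.2 and 28.9 CPM with 50 µM. The 50 µM libraries lay within the vehicle range at 3 h and below it at 24 and 48 h. Myom2 fell by 1.29 on the log2 scale at 24 h (SE 0.18, adjusted p = 0.00108) and by 1.63 at 48 h (SE 0.17, adjusted p = 3.3e-05). Myom1, the general myomesin, fell by 0.86 and 1.48 (SE 0.15 at both times). Ckm, muscle creatine kinase, which regenerates ATP at the M-band, was near the limit of counting. At 3 h, Ckm had 0.307, 0.327, 0.337, 0.477 and 0.821 CPM in vehicle cultures, 0.0538, 0.219, 0.231, 0.846 and 1.01 CPM with 10 µM and 0.289, 0.324, 0.462, 0.516 and 0.597 CPM with 50 µM. Ckm at 24 h stood at 0.676, 0.853, 1.22, 1.26 and 1.46 CPM in vehicle cultures, at 0.0962, 0.562, 0.651, 0.757 and 1.12 CPM with 10 µM and at 0.218, 0.234, 0.295, 0.438 and 0.721 CPM with 50 µM. The 48 h values of Ckm were 1.0, 1.91, 1.95, 2.12 and 4.06 CPM in vehicle cultures, 1.04, 1.14, 1.61, 2.59 and 2.61 CPM with 10 µM and 0, 0.256, 0.354, 0.53 and 0.958 CPM with 50 µM. At 48 h the 50 µM values lay below all vehicle values, and 1 library held 0 counts. The estimate of Ckm was -1.51 ± 0.41 (SE, adjusted p = 0.0617) at 24 h, which did not pass, and -2.35 ± 0.55 (SE, adjusted p = 0.0131) at 48 h. Without replicate 5 of 50 µM the 24 h estimate passed, with an adjusted p of 0.0424.

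In the thin filament, both sarcomeric alpha-actins were among the most abundant members per length. Actc1, the cardiac-type form that embryonic skeletal muscle uses first, reached 320.4 ± 41 FPKM with 50 µM and 614 ± 147 FPKM with vehicle at 48 h (SD, n = 5 each). Actc1 at 3 h stood at 331, 339, 343, 348 and 349 CPM in vehicle cultures, at 318, 373, 382, 400.2 and 437 CPM with 10 µM and at 329, 339, 355, 362 and 398 CPM with 50 µM. The 24 h values of Actc1 were 571, 913, 1043, 1045 and 1189 CPM in vehicle cultures, 544, 679.5, 726, 801 and 959 CPM with 10 µM and 456, 472, 505, 626 and 636 CPM with 50 µM. After 48 h, counts of Actc1 came to 715, 823, 1015, 1112 and 1321 CPM in vehicle cultures, to 558, 782, 819.9, 947 and 1062 CPM with 10 µM and to 435, 484.96, 528, 545 and 615 CPM with 50 µM. The groups overlapped at 24 h through the lowest vehicle library and were apart at 48 h. Its log2 fold change was -0.82 ± 0.16 (SE, adjusted p = 0.00929) at 24 h and -0.94 ± 0.13 (SE, adjusted p = 0.000376) at 48 h. Acta1 is the skeletal form that takes over later. The 3 h values of Acta1 were 137, 138, 143, 148 and 151 CPM in vehicle cultures, 146, 153, 157, 164 and 208 CPM with 10 µM and 152, 155, 165, 169.8 and 171 CPM with 50 µM. After 24 h, counts of Acta1 came to 401, 551, 658, 676 and 724 CPM in vehicle cultures, to 414, 479, 530.3, 583 and 603 CPM with 10 µM and to 357, 358, 401, 418 and 453 CPM with 50 µM. At 48 h, Acta1 had 710.2, 777, 859.5, 939 and 1122 CPM in vehicle cultures, 576, 826, 859.6, 901 and 1000.4 CPM with 10 µM and 342, 454, 476, 488 and 549.7 CPM with 50 µM. At 3 h every 50 µM library lay above every vehicle library, which 2.43% of all genes did, but the estimate of 0.17 ± 0.06 (SE, adjusted p = 0.21) was small and not called. Acta1 fell by 0.60 at 24 h (SE 0.13, adjusted p = 0.0167), with an overlap by the lowest vehicle library, and by 0.94 at 48 h (SE 0.12, adjusted p = 0.000185), with none. Its 24 h call was lost without replicate 3 or 5 of vehicle or replicate 2 of 50 µM, with an adjusted p of up to 0.058. The promoters of both actins are printed above.

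Troponin T ties the troponin complex to tropomyosin. Tnnt1 is the slow form. It was the highest of the 3 per length except in replicates 1 and 2 of 10 µM at 48 h. There the FPKM ratio of Tnnt3 to Tnnt1 was 1.006 and 1.047. After 3 h, counts of Tnnt1 came to 80.8, 92.3, 113, 114 and 124 CPM in vehicle cultures, to 100.1, 118, 120.2, 140.2 and 153 CPM with 10 µM and to 58.8, 96.8, 106, 108 and 111 CPM with 50 µM. At 24 h, Tnnt1 had 209.5, 212, 262, 281 and 291 CPM in vehicle cultures, 185, 191, 217, 240.3 and 261 CPM with 10 µM and 154, 159, 163, 171 and 175 CPM with 50 µM. Tnnt1 at 48 h stood at 242.5, 257, 288, 315 and 327 CPM in vehicle cultures, at 152, 241.005, 255, 259 and 267 CPM with 10 µM and at 98.1, 123, 149.9, 155 and 159.8 CPM with 50 µM. At 3 h replicate 3 of 50 µM was low, and at 24 and 48 h the 50 µM libraries lay below all vehicle libraries. Tnnt1 fell by 0.62 at 24 h (SE 0.09, adjusted p = 0.00139) and by 1.07 at 48 h (SE 0.12, adjusted p = 5.61e-05). Tnnt2 is the form of the heart and of embryonic skeletal muscle. At 3 h, Tnnt2 had 42.9, 44.5, 48.8, 49.1 and 54.4 CPM in vehicle cultures, 47.3, 47.4, 53.8, 57.8 and 73.5 CPM with 10 µM and 43.3, 44.4, 47.5, 49 and 50.3 CPM with 50 µM. Tnnt2 at 24 h stood at 135, 186, 188, 222 and 227 CPM in vehicle cultures, at 122, 148, 150.1, 172 and 186 CPM with 10 µM and at 108, 112, 123, 129 and 130.3 CPM with 50 µM. The 48 h values of Tnnt2 were 188, 201, 247, 252 and 269 CPM in vehicle cultures, 116, 200.4, 219.7, 226 and 228 CPM with 10 µM and 81, 119, 134, 135 and 158 CPM with 50 µM. The 50 µM libraries were below all vehicle libraries at 24 and 48 h. Its estimates were -0.67 ± 0.11 (SE, adjusted p = 0.00478) at 24 h and -0.89 ± 0.14 (SE, adjusted p = 0.000769) at 48 h. Tnnt3, the fast form, had the lowest estimate of the 3 at 24 h. Tnnt3 at 3 h stood at 23.4, 29.1, 31.9, 32.4 and 32.8 CPM in vehicle cultures, at 29.4, 32.4, 33.7, 35.8 and 46.1 CPM with 10 µM and at 30.1, 30.5, 30.6, 32.1 and 34.4 CPM with 50 µM. The 24 h values of Tnnt3 were 83, 86.7, 107, 117 and 144 CPM in vehicle cultures, 78.9, 88.6, 89.3, 92 and 123 CPM with 10 µM and 45.8, 45.9, 46.6, 59 and 59.97 CPM with 50 µM. After 48 h, counts of Tnnt3 came to 145, 165, 187, 187 and 196 CPM in vehicle cultures, to 114, 164, 165, 172 and 184 CPM with 10 µM and to 47, 76.3, 82.9, 87.5 and 90.4 CPM with 50 µM. There was no overlap at 24 or 48 h. Tnnt3 had a log2 fold change of -1.07 ± 0.14 (SE, adjusted p = 0.000708) at 24 h and -1.20 ± 0.14 (SE, adjusted p = 6.57e-05) at 48 h.

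Troponin I holds the thin filament off until calcium arrives, and troponin C is the calcium sensor. Tnni1 is the slow inhibitor. The 3 h values of Tnni1 were 50.3, 53.9, 54, 58.1 and 58.9 CPM in vehicle cultures, 52.9, 62.9, 63.8, 66.9 and 88.5 CPM with 10 µM and 51.7, 52.1, 55.1, 55.7 and 63.1 CPM with 50 µM. After 24 h, counts of Tnni1 came to 130.1, 171, 200.5, 229 and 233 CPM in vehicle cultures, to 123, 149, 152, 193 and 197 CPM with 10 µM and to 113, 122, 124, 128 and 134 CPM with 50 µM. At 48 h, Tnni1 had 183, 202, 239, 255 and 308 CPM in vehicle cultures, 138, 227, 229, 247 and 277 CPM with 10 µM and 88, 120.3, 126, 127 and 156 CPM with 50 µM. At 24 h the highest 50 µM library passed the lowest vehicle library, and at 48 h the groups were apart. Tnni1 fell by 0.64 at 24 h (SE 0.12, adjusted p = 0.0109) and by 0.95 at 48 h (SE 0.14, adjusted p = 0.000489). Tnni2 is the fast inhibitor. After 3 h, counts of Tnni2 came to 5.39, 6.86, 7.16, 8.07 and 8.55 CPM in vehicle cultures, to 4.11, 7.2, 8.29, 8.66 and 12.4 CPM with 10 µM and to 5.1, 5.96, 6.44, 7.37 and 8.89 CPM with 50 µM. At 24 h, Tnni2 had 18, 19.1, 21.8, 24 and 24.5 CPM in vehicle cultures, 15.6, 15.9, 17.5, 18.6 and 23.3 CPM with 10 µM and 8.06, 10.5, 10.8, 12 and 12.4 CPM with 50 µM. Tnni2 at 48 h stood at 31.6, 31.9, 34.8, 38.7 and 42.1 CPM in vehicle cultures, at 21.6, 28.2, 30.2, 30.3 and 38.4 CPM with 10 µM and at 10.2, 13.5, 16.3, 17.2 and 18.2 CPM with 50 µM. Both times after 3 h showed no overlap. The estimates were -1.01 ± 0.13 (SE, adjusted p = 0.000692) at 24 h and -1.26 ± 0.14 (SE, adjusted p = 4.85e-05) at 48 h.

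Tnnc1 is the slow and cardiac sensor. At 3 h, Tnnc1 had 58.6, 62.8, 63.8, 66.9 and 69.5 CPM in vehicle cultures, 56.3, 73.3, 78.9, 80.5 and 95.8 CPM with 10 µM and 56.2, 60.2, 66.9, 69 and 72.5 CPM with 50 µM. Tnnc1 at 24 h stood at 149.6, 163, 208, 219 and 229 CPM in vehicle cultures, at 145, 146, 149.6, 178 and 213 CPM with 10 µM and at 105, 109, 109, 109 and 117 CPM with 50 µM. The 48 h values of Tnnc1 were 205, 236, 252, 274 and 274 CPM in vehicle cultures, 134, 215, 221, 232 and 235 CPM with 10 µM and 78.3, 96.6, 115, 116 and 132 CPM with 50 µM. All 50 µM libraries lay below all vehicle libraries at 24 and 48 h. Tnnc1 fell by 0.82 at 24 h (SE 0.10, adjusted p = 0.000551) and by 1.21 at 48 h (SE 0.12, adjusted p = 2.67e-05). Tnnc2, the fast sensor, was the 1 member tested in no comparison, since it held 0 to 12 counts per library and 0 in 21 of the 45. A listed 0 of 17.54 M counts or more allows 3 counts, for counting error only. Of its exon bases, 74.0% lie opposite Ube2c, a cell-cycle gene with group medians of 32.7 to 93.9 CPM, and the strand setting of the counting is not given in the sources.

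The other thin filament genes include tropomyosin and nebulin. Tpm2 encodes beta-tropomyosin, which lies along the actin groove, and fell by 0.80 at 24 h (SE 0.12) and 1.04 at 48 h (SE 0.11). Neb encodes nebulin, the ruler of the thin filament. Neb at 3 h stood at 55.9, 56.9, 62.3, 76.2 and 77.4 CPM in vehicle cultures, at 43.5, 59.5, 62.7, 65.5 and 72.4 CPM with 10 µM and at 61.8, 62, 64.8, 66.6 and 72.8 CPM with 50 µM. The 24 h values of Neb were 85.1, 182, 182, 200.1 and 212 CPM in vehicle cultures, 94.8, 134, 149, 164 and 186 CPM with 10 µM and 82.6, 107, 126, 129 and 139 CPM with 50 µM. After 48 h, counts of Neb came to 148, 149, 230.2, 237 and 247 CPM in vehicle cultures, to 152, 189, 206, 206 and 251 CPM with 10 µM and to 79, 105, 118, 119.7 and 127 CPM with 50 µM. Replicate 1 of vehicle was far below the others at 24 h, within the 50 µM range, and at 48 h the groups did not overlap. The estimate of Neb was -0.56 ± 0.19 (SE, adjusted p = 0.148) at 24 h and -0.89 ± 0.15 (SE, adjusted p = 0.00164) at 48 h. The 24 h estimate of Neb passed without replicate 1 of vehicle (adjusted p = 0.0018). It also passed without the filter on low counts (0.03005) and with the replicate number as a block (0.0013). Leiomodins lengthen actin filaments: Lmod3 gave -0.50 ± 0.17 (SE, adjusted p = 0.138) at 24 h and -0.95 ± 0.19 (SE, adjusted p = 0.00398) at 48 h, and Lmod2, at 0.305 to 0.557 CPM with 50 µM and 0.684 to 2.37 CPM with vehicle, fell by 1.97 at 48 h (SE 0.37). The 24 h estimate of Lmod3 passed without replicate 1 of vehicle (adjusted p = 0.00545) and with the replicate number as a block (0.014).

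Titin, the spring between Z-disc and M-band, comes from Ttn. The 3 h values of Ttn were 144, 146, 178, 206 and 229 CPM in vehicle cultures, 101, 152, 159, 178 and 195 CPM with 10 µM and 155, 164, 168, 188 and 219.7 CPM with 50 µM. After 24 h, counts of Ttn came to 233, 407, 503, 561 and 592 CPM in vehicle cultures, to 271, 395, 395, 411 and 520.2 CPM with 10 µM and to 188, 288, 305, 392 and 414 CPM with 50 µM. At 48 h, Ttn had 393, 415, 681, 693 and 727 CPM in vehicle cultures, 412, 482.96, 542, 598 and 761 CPM with 10 µM and 203, 266, 327, 338 and 341 CPM with 50 µM. The groups overlapped at 24 h, and at 48 h every 50 µM library lay below every vehicle library. The estimate of Ttn was -0.53 ± 0.23 (SE, adjusted p = 0.256) at 24 h and -0.99 ± 0.18 (SE, adjusted p = 0.00221) at 48 h. Its 24 h estimate passed without replicate 1 of vehicle (adjusted p = 0.0345) and with the replicate number as a block (0.0066).

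The Z-disc held both the largest and the smallest called change at 48 h, those of Csrp3 and Des. Csrp3 passed the filter at 48 h with the help of the vehicle libraries. Its replicate 1 of 50 µM (0.256 CPM) lay under the minimum of 0.496 CPM. Csrp3 encodes the muscle LIM protein, a Z-disc sensor of stretch. After 3 h, counts of Csrp3 came to 2.82, 3.05, 3.25, 3.37 and 3.77 CPM in vehicle cultures, to 1.97, 2.53, 2.92, 4.6 and 5.03 CPM with 10 µM and to 1.94, 2.17, 2.31, 2.93 and 3.47 CPM with 50 µM. At 24 h, Csrp3 had 3.72, 3.96, 5.23, 5.52 and 6.01 CPM in vehicle cultures, 2.55, 2.71, 3.06, 3.85 and 5.23 CPM with 10 µM and 1.29, 1.42, 1.53, 1.57 and 1.69 CPM with 50 µM. Csrp3 at 48 h stood at 7.47, 9.24, 9.52, 10.8 and 11.4 CPM in vehicle cultures, at 3.32, 6.38, 6.72, 7.2 and 12.2 CPM with 10 µM and at 0.256, 1.75, 1.77, 2.12 and 2.29 CPM with 50 µM. At 3 h the ranges overlapped, and at 24 and 48 h all 50 µM values were below all vehicle values. Csrp3 had 1.64 ± 0.806 CPM with 50 µM and 9.68 ± 1.53 CPM with vehicle at 48 h (SD, n = 5 each), a log2 fold change of -2.57 ± 0.32 (SE, adjusted p = 0.000124), after -1.70 ± 0.21 (SE, adjusted p = 0.000551) at 24 h. Its promoter with 5 E-boxes is printed above. Des encodes desmin, the intermediate filament around the Z-disc. At 3 h, Des had 58.2, 71.8, 81.7, 81.9 and 83 CPM in vehicle cultures, 71.1, 78.8, 79.96, 80.8 and 107 CPM with 10 µM and 72.9, 75.5, 78.3, 81.1 and 81.4 CPM with 50 µM. Des at 24 h stood at 130.3, 153, 178, 193 and 197 CPM in vehicle cultures, at 137, 139, 141, 156 and 169 CPM with 10 µM and at 107, 112, 115, 119.6 and 135 CPM with 50 µM. The 48 h values of Des were 172, 175, 207, 223 and 242.6 CPM in vehicle cultures, 119.8, 183, 195, 198 and 199 CPM with 10 µM and 93.6, 129, 149, 158 and 160.0 CPM with 50 µM. The highest 50 µM library passed the lowest vehicle library at 24 h, and at 48 h the groups were apart. Des fell by 0.54 at 24 h (SE 0.10, adjusted p = 0.00983) and by 0.57 at 48 h (SE 0.13, adjusted p = 0.0105), the smallest called fall of any member at 48 h.

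Tcap encodes telethonin, which caps titin at the Z-disc. Tcap at 3 h stood at 2.98, 3.15, 3.56, 3.58 and 4.36 CPM in vehicle cultures, at 2.17, 2.75, 3.63, 4.63 and 6.69 CPM with 10 µM and at 3.05, 3.11, 3.37, 5.24 and 5.58 CPM with 50 µM. The 24 h values of Tcap were 5.89, 6.08, 6.78, 8.06 and 8.21 CPM in vehicle cultures, 5.97, 6.54, 7.58, 7.92 and 8.62 CPM with 10 µM and 3.43, 3.5, 3.54, 3.84 and 5.26 CPM with 50 µM. After 48 h, counts of Tcap came to 7.55, 12.5, 12.6, 13.4 and 14.5 CPM in vehicle cultures, to 9.0, 11.1, 11.7, 11.8 and 12.1 CPM with 10 µM and to 1.94, 4.66, 5.09, 5.35 and 6.62 CPM with 50 µM. At 24 and 48 h the highest 50 µM library stayed below the lowest vehicle library. Its log2 fold change was -0.84 ± 0.17 (SE, adjusted p = 0.0153) at 24 h and -1.36 ± 0.25 (SE, adjusted p = 0.00253) at 48 h. Ldb3 encodes the PDZ-LIM protein ZASP, which binds alpha-actinin. The 3 h values of Ldb3 were 9.67, 9.98, 10.9, 11.1 and 15 CPM in vehicle cultures, 9.77, 11.8, 12.3, 13.3 and 16.9 CPM with 10 µM and 9.97, 12.3, 14.4, 15 and 15.2 CPM with 50 µM. After 24 h, counts of Ldb3 came to 25.1, 37.9, 39, 47.9 and 51.8 CPM in vehicle cultures, to 31.8, 32.7, 39.7, 40.1 and 43 CPM with 10 µM and to 20.6, 20.9, 24.5, 29.1 and 29.7 CPM with 50 µM. At 48 h, Ldb3 had 48.1, 59.6, 67.7, 78.3 and 79.9 CPM in vehicle cultures, 42.9, 61.2, 63.3, 64.8 and 69.9 CPM with 10 µM and 17.8, 24.9, 29.2, 31.5 and 31.8 CPM with 50 µM. The ranges overlapped at 3 and 24 h and were apart at 48 h. Ldb3 fell by 0.70 at 24 h (SE 0.17, adjusted p = 0.0309), a call lost in 6 refits that left out 1 library (adjusted p of up to 0.0948), and by 1.31 at 48 h (SE 0.15, adjusted p = 7.85e-05).

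Of the remaining Z-disc genes, Actn2, the alpha-actinin that crosslinks thin filaments, fell by 0.86 at 24 h (SE 0.17) and 1.29 at 48 h (SE 0.15). Myoz2, a calcineurin-binding protein of slow fibres and heart, fell by 0.78 (SE 0.17) and 1.65 (SE 0.18), and its 24 h call was lost in 3 refits that left out 1 library. Xirp1, an actin-binding repeat protein, gave -0.89 ± 0.27 (SE, adjusted p = 0.1) at 24 h and -1.37 ± 0.23 (SE, adjusted p = 0.00126) at 48 h. The 24 h estimate of Xirp1 passed without the filter on low counts (adjusted p = 0.0416), with DESeq2 (0.0242), in the fit of all 45 libraries (0.0169) and without replicate 1 of vehicle (0.0465) or replicate 3 of 50 µM (0.0409). It also passed with the replicate number as a block (0.0055). The assembly factors sit outside the filaments. Smyd1, a methyltransferase with a role in folding myosin, fell by 0.71 at 24 h (SE 0.12) and by 1.07 at 48 h (SE 0.13). Klhl41, a kelch protein that steadies nebulin, did not pass at 24 h, with -0.26 ± 0.11 (SE, adjusted p = 0.275), and fell by 0.67 at 48 h (SE 0.10). Without replicate 1 of vehicle its 24 h estimate passed (adjusted p = 0.0334).

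**Figure D4:**
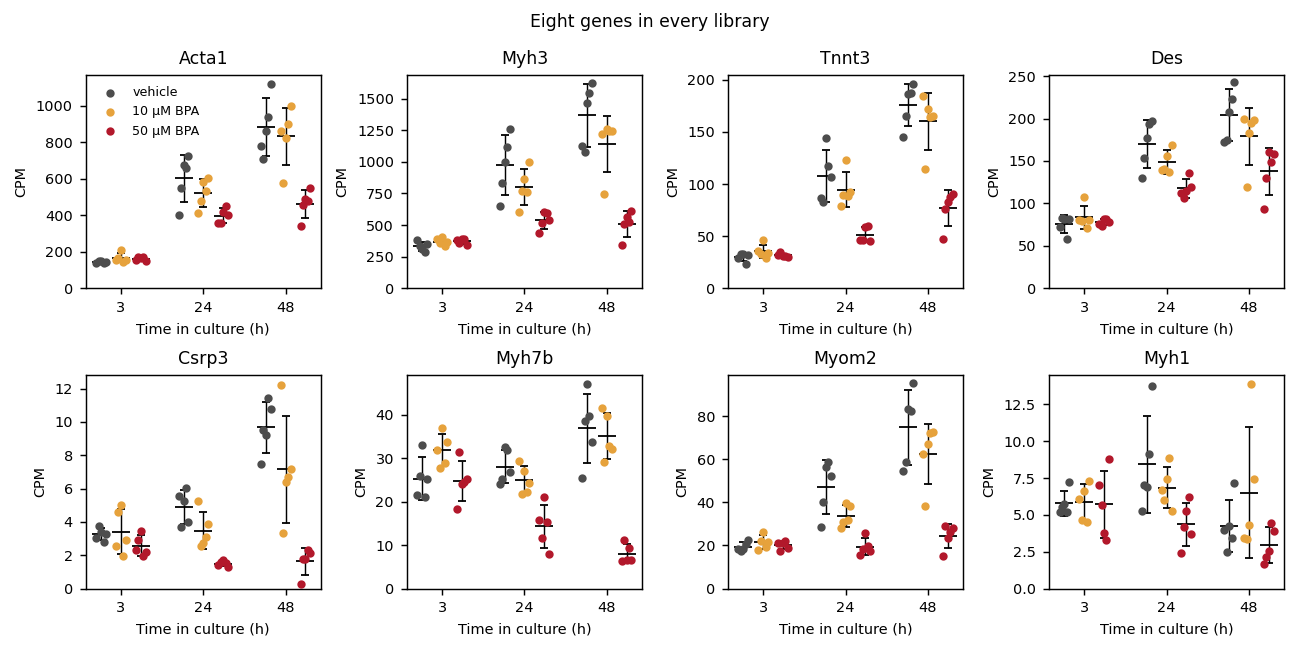
CPM of 8 sarcomere genes in each library, for vehicle, 10 µM and 50 µM cultures at 3, 24 and 48 h; points are libraries in order of replicate number and black bars give the mean ± SD of 5. In Acta1, Myh3, Tnnt3 and Myom2 the vehicle values climb with time while those of 50 µM stay below them at 48 h, and Myh1 stays under 14 CPM throughout.

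The second question was how the genes ran over culture time. In vehicle cultures, 32 of 35 tested members rose at 24 h relative to 3 h and 0 fell, against 30% of all genes called. Without Ckm and Myh2, some of whose 3 h libraries were under the filter's minimum, 31 of 33 rose, against 32.5% of genes whose libraries all reached it, with a median log2 fold change of 1.55. Acta1 rose most, by 2.08 ± 0.12 (SE, adjusted p = 3.6e-08), followed by Tnnt2 with 2.01 ± 0.12. The 3 members not called were Myh1 (0.55 ± 0.22), Myh2 (0.96 ± 0.47) and Myh7b (0.16 ± 0.13). Relative to 24 h, 10 of 36 rose at 48 h and 1 fell, against 8.45% of all genes, with a median of 0.40. Those that rose include Tnni2 with 0.73 ± 0.11, Tnnt3 with 0.70 ± 0.13 and Csrp3 with 0.98 ± 0.17, and Myh1 fell by 0.99 (SE 0.28, adjusted p = 0.0433). The call of Myh1 was lost in 8 of the 10 refits that left out 1 library, with an adjusted p of up to 0.131. That count of 11 was 6 without replicate 2 of vehicle at 24 h or replicate 4 at 48 h and 7 without replicate 3 or 5 at 48 h, and both comparisons share the 24 h libraries. Over the whole span, 35 of 36 were called higher at 48 h than at 3 h, against 46.7% of all genes. Ckm, Lmod2 and Myh2 are among the 35 and entered with the help of their 48 h libraries. Without them 32 of 33 rose, against 49.4% of genes whose libraries all reached the minimum, with a median of 1.95.

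With 50 µM, relative to 3 h, 26 of 34 tested members rose at 24 h and 2 fell, against 31.1% of all genes, with a median of 0.71. The 2 that fell were Myh7b, with -0.78 ± 0.20 (SE, adjusted p = 0.00623), and Csrp3, with -0.76 ± 0.24 (SE, adjusted p = 0.0246). Relative to 24 h, 1 rose at 48 h and 2 fell, against 11.4% of all genes, with a median of -0.06. Tnnt3 rose by 0.57 ± 0.14 (SE), Myh7b changed by -0.85 ± 0.22 and Klhl41 by -0.28 ± 0.09. The count of 3 was 6 without replicate 1 of 50 µM at 48 h and 2 at the least.

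Whether the effect of 50 µM changed with time was tested by interaction terms in a fit of all 45 libraries, in which the effects share no library between times. The effect at 24 h was lower than at 3 h in 12 of 36 tested members and higher in 0, against 0.592% of all genes. The smallest adjusted p among them were those of Tnnt3, with a difference of -1.14 ± 0.21 (SE, adjusted p = 0.00151), and Myom2, with -1.34 ± 0.25 (SE, adjusted p = 0.00181). That count was 4 without replicate 5 of vehicle at 24 h and 19 without replicate 1 of that group. The effect at 48 h was lower than at 3 h in 29 of 36, against 1.96% of all genes, and in 28 of the 32 members with no library under the filter's minimum. Between 48 and 24 h, 0 of 36 members passed in edgeR, against 0% of all genes. An unadjusted p under 0.05 was reached by 15 members, DESeq2 called 1, and the largest difference was that of Myh7b, with -1.23 ± 0.25 (SE, adjusted p = 0.2).

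The third question was the lower dose. With 10 µM, 0 of 34, 36 and 36 tested members passed at 3, 24 and 48 h in edgeR, against 0%, 0% and 0.00591% of all genes, and 5, 6 and 2 had an unadjusted p under 0.05. DESeq2 also called 0 at each time, and these comparisons share the vehicle libraries with those of 50 µM. No member's 10 µM libraries were apart from the vehicle libraries at any time. The share of all genes with such a gap, or with an unadjusted p under 0.05, is not given here. The median log2 fold changes were 0.16, -0.24 and -0.19 at 3, 24 and 48 h. Of the estimates, 33 of 36 were below 0 at 24 h and 35 of 36 at 48 h. Members in the same library are not independent, and the share of all genes below 0 is not given. These counts are therefore not read as an effect of 10 µM. At 24 and 48 h same-numbered libraries of 10 µM and vehicle deviated together. With the replicate number as a block, 10 members were lower with 10 µM at 24 h, against 0.557% of all genes called in that fit, and 0 at 48 h. They were Actc1, with -0.34 ± 0.05 (SE, adjusted p = 0.00166), Tnnt2, with -0.29 ± 0.04 (SE, adjusted p = 0.00228), Myl1, with -0.31 ± 0.05 (SE, adjusted p = 0.00321), Tpm2, Mylpf, Myom2, Myh3, Tnni1, Myh8 and Tnnt1. The share of counts in the members was lower with 10 µM in 5 of 5 same-numbered pairs at 24 h and in 4 of 5 at 48 h.

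Set against 10 µM, the 50 µM cultures had 0 of 36 members called at 3 h, 12 lower at 24 h and 33 lower at 48 h, against 0.618%, 0.789% and 3.14% of all genes called. At 3 h 2 had an unadjusted p under 0.05 and DESeq2 called 0. At 24 h the 12 were Myh3, Myh7b, Myh8, Mylpf, Tnnt3, Tnnc1, Tnni2, Tpm2, Myom1, Myom2, Tcap and Csrp3, and Tnnt3 had the smallest adjusted p, with -0.88 ± 0.15 (SE, adjusted p = 0.00066). That count was 2 without replicate 3 of 10 µM, 4 without its replicate 5 and 7 without its replicate 4. It was 5 without replicate 1 of 50 µM and 4 without its replicate 2 or 5. At 48 h Csrp3 differed by -2.13 ± 0.30 and Myh7b by -2.13 ± 0.18 (SE), and the 3 members not called were Myh2, Des and Lmod2. Of the 33, Ckm and Csrp3 had 50 µM libraries under the filter's minimum, and 31 of the 32 members with none under it fell. The comparisons of 50 µM with 10 µM and with vehicle share the 50 µM libraries.

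The isoform make-up was read from ratios of 8 pairs of forms. In vehicle cultures, 12 of 24 exact permutation tests between times passed after Benjamini-Hochberg adjustment. The ratio of Acta1 to Actc1 in FPKM was 0.442 ± 0.0255, 0.672 ± 0.0416 and 0.944 ± 0.0726 at 3, 24 and 48 h (SD, n = 5 each), with no overlap between times. Its log2 difference was 1.09 at 48 h over 3 h (two-sided exact permutation p = 0.00794, the smallest that 5 against 5 libraries allow; adjusted p = 0.019). Fast over slow troponin T, Tnnt3 to Tnnt1, had ratios of 0.406 ± 0.0904, 0.595 ± 0.0973 and 0.861 ± 0.0799 at the same times, a log2 difference of 1.10 at 48 h over 3 h. Perinatal over embryonic myosin, Myh8 to Myh3, had a log2 difference of 0.37 at 24 h over 3 h, and Myh7 to Myh3 had a log2 difference of -0.51.

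With BPA, 0 of 48 exact permutation tests against vehicle passed after adjustment, with a smallest adjusted p of 0.127, and 12 had an unadjusted p under 0.05. The smallest p that 5 against 5 libraries allow is 0.00794. Over 48 tests it passes only where several tests reach it together. A single ratio could therefore not pass on its own, however far its groups lay apart. A miss does not show that the make-up was alike. Mylpf to Myl4 at 24 h was 7.08 to 8.71 with 50 µM and 8.98 to 9.74 with vehicle, a log2 difference of -0.28, with no overlap. Tnnt3 to Tnnt2 at 48 h was 2.81 to 3.21 with 50 µM and 3.54 to 4.29 with vehicle, a log2 difference of -0.32, also with no overlap. Tnni2 to Tnni1 was 0.294 ± 0.0343 with 50 µM and 0.373 ± 0.0809 with vehicle at 48 h (SD, n = 5 each), and those libraries overlapped. These 3 were chosen after their values were seen. The other fast over slow pairs had differences of -0.44 at 24 h and -0.15 at 48 h (Tnnt3 to Tnnt1), and of 0.28 and 1.12 at the same times (Tnnc2 to Tnnc1, on few counts of Tnnc2). Acta1 to Actc1 had a log2 difference of 0.22 with 50 µM at 24 h (exact permutation p = 0.0238, adjusted p = 0.19). Acta1 to Actc1 at 48 h was 0.93 ± 0.060 with 50 µM and 0.944 ± 0.0726 with vehicle. At 10 µM and 24 h, Mylpf to Myl4 was also without overlap, with a log2 difference of -0.11.

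**Figure D5:**
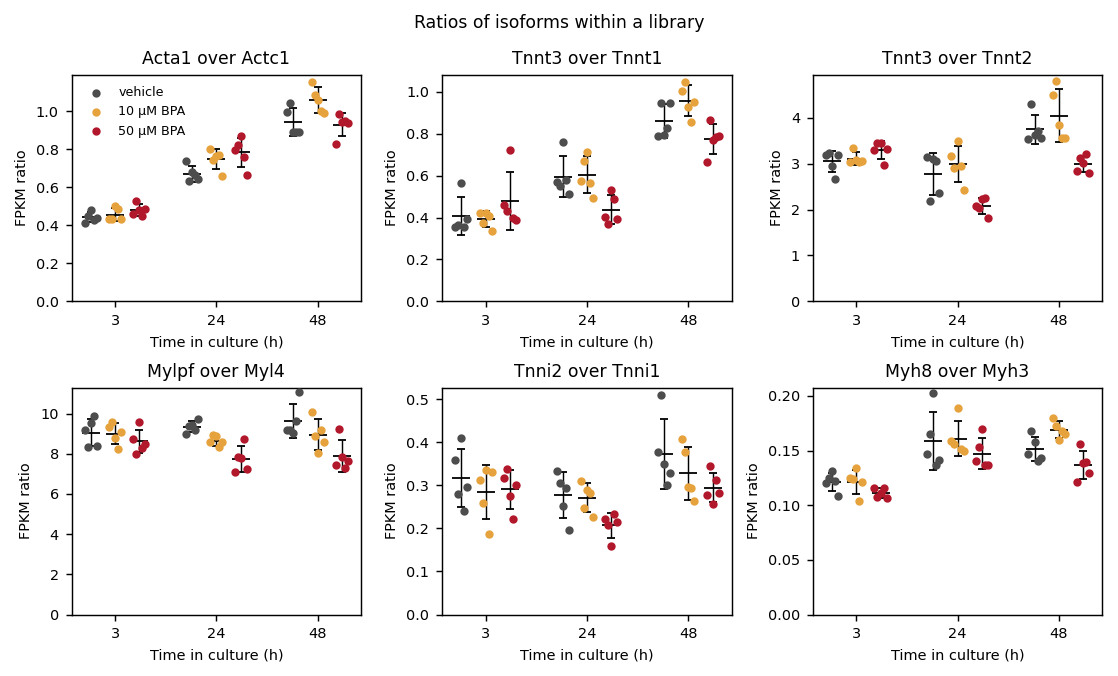
Ratio of FPKM of 6 pairs of isoforms in each library, for vehicle, 10 µM and 50 µM cultures at 3, 24 and 48 h; black bars give the mean ± SD of 5 libraries. Acta1 to Actc1 and Tnnt3 to Tnnt1 have higher means at 48 h than at 24 h in all 3 treatments. Of the 48 tests of BPA against vehicle, 0 passed after adjustment, which a single ratio could not do on its own.

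As shares of the summed FPKM of the 6 heavy chains at 48 h, Myh3 made up 83.8 ± 1.21% with 50 µM and 82.2 ± 1.13% with vehicle (SD, n = 5 each), and Myh8 made up 11.5 ± 0.921% with 50 µM and 12.4 ± 0.748% with vehicle. The share of Myh7b was 1.23 ± 0.349% with 50 µM and 2.05 ± 0.445% with vehicle. In vehicle cultures of 48 h the most abundant members per length were Actc1, Acta1 with 572 ± 103 FPKM, Mylpf with 413 ± 64.6 FPKM, Tnnc1 with 238 ± 27.4 FPKM, Tpm2 with 233 ± 36 FPKM and Myh3 (SD, n = 5 each). Neighbours in that order, such as Actc1 and Acta1, or Tnnc1, Tpm2 and Myh3, lay within their spread. At the low end stood Tnnc2, Myh2, Myh1, Ckm and Lmod2, each under 1 FPKM.

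Other genes of the muscle programme were read in lists, where genes with libraries under the filter's minimum were not set apart. Of all genes, 1.41%, 3.47% and 9.18% were called with 50 µM against vehicle at 3, 24 and 48 h. Of 32 other sarcomere genes, 0 passed at 3 h, 11 of 26 tested fell at 24 h and 18 of 27 at 48 h, and 0 rose, with medians of -0.63 and -0.89 at 24 and 48 h. The called genes of smallest p at 48 h were Smpx, a small chaperone-like protein at the costamere (-1.75 ± 0.17, SE), the light chain Myl6b (-1.13 ± 0.11), the heavy chain Myh6 (-1.44 ± 0.15) and Klhl40, which steadies nebulin (-1.22 ± 0.15), and at 24 h Klhl40 (-0.97 ± 0.12) came first. Of 18 myogenic regulators, 0 of 17 tested passed at 3 h, 3 fell at 24 h and 10 at 48 h, with medians of -0.26 and -0.53. At 48 h Myf5, a determination factor of myoblasts, had -1.56 ± 0.18, Msc -0.95 ± 0.12, Lbx1 of migrating precursors -1.43 ± 0.18 and Vgll2 -0.65 ± 0.10 (SE). The myoblast determination factor Myod1 had -0.08 ± 0.11 (SE, adjusted p = 0.727) and the differentiation factor Myog -0.28 ± 0.14 (SE, adjusted p = 0.257), and neither passed, while Pax7 fell by 0.96 (SE 0.15).

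Genes that couple excitation to contraction moved as well. Of 21, 1 of 20 tested fell at 3 h, 9 at 24 h and 15 at 48 h, against 1.41%, 3.47% and 9.18% of all genes called. None rose, and the medians were 0.03, -0.44 and -0.65. The 1 called at 3 h was Cacnb1, a subunit of the muscle calcium channel (-0.45 ± 0.10, SE, adjusted p = 0.0375), which also fell at 24 h (-0.50 ± 0.07) and 48 h (-0.63 ± 0.09). At 48 h Srl, a protein of the sarcoplasmic reticulum, had -1.06 ± 0.13, and the calsequestrins, which store calcium there, had -1.16 ± 0.15 (Casq2) and -1.36 ± 0.21 (Casq1). Ryr1 fell by 0.71 at 48 h (SE 0.15), and the acetylcholine receptor subunit Chrna1, with -0.21 ± 0.12, did not pass.

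Markers of other cell types were read beside these falls, where 3.47% of all genes were called at 24 h and 9.18% at 48 h. Of 8 smooth muscle markers, 1 fell at 24 h and 3 at 48 h, led by Acta2 (-1.08 ± 0.15 and -1.0 ± 0.13, SE). The sum of the 8 was 203 to 251 CPM with 50 µM and 264 to 455 CPM with vehicle at 24 h, and 185 to 231 CPM with 50 µM and 287 to 396 CPM with vehicle at 48 h. Of 8 macrophage markers, 3 fell at 24 h and 4 at 48 h, and their sum was 118 to 215 CPM with 50 µM and 209.5 to 290.2 CPM with vehicle at 48 h. Of 6 tendon markers, 3 fell at each of these times, with sums of 482.2 to 584 CPM with 50 µM and 689.9 to 875 CPM with vehicle at 48 h, led by Tnmd (-1.04 ± 0.14 and -1.16 ± 0.12, SE). Of 10 chondrocyte markers, Matn3 fell at 24 h (-0.59 ± 0.13) and Sox9 rose at 48 h (0.23 ± 0.06), and of 6 Schwann cell and neural markers Stmn2 fell at 48 h (-0.96 ± 0.20).

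Of the epidermal, endothelial, erythroid and cardiac lists, 0 of 10, 8, 7 and 2 tested genes passed at 24 h and 0 of 10, 8, 6 and 2 at 48 h in edgeR. The sum of the epidermal markers ran widely within groups, at 254 to 869 CPM with 50 µM and 81.5 to 1428 CPM with vehicle at 24 h. Genes of the integrated stress response, which slows translation under stress, went the other way. Of 8, 1 rose at 3 h, 6 at 24 h and 7 at 48 h, against 1.41%, 3.47% and 9.18% of all genes called. The sum of the 8 was 657 to 799 CPM with 50 µM and 437 to 589 CPM with vehicle at 48 h, and Trib3, a target of that pathway, had 1.34 ± 0.16 (SE). The part of these other cell types and of the stress genes in the falls of the sarcomere genes was not tested.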

How the data were processed

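RNA of forelimb bud cultures was bound to poly-T beads, primed with random hexamers and amplified by PCR, per the labels' protocols. The authors deposited whole-number counts of reads per gene and FPKM values, scaled by gene length and depth, per the file headers. STAR 2.5, HTSeq 0.6.1, CASAVA 1.8 and build mm10 are named, without roles, per the submitters' processing notes. The strand setting of the counting is not given in the sources, so overlapping genes cannot be told apart. Tables holding the same library had 0 unequal counts, and 0 columns of values lacked a labelled sample. Counts of PCR reads are not independent molecules.

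Groups follow the titles. For the 50 µM libraries of 3 h another label field gives 24 hours, and the treatment text gives 3 hours for every sample. For 10 µM at 48 h, replicates 1 and 2 carry each other's library code, and the titles were followed.

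Each comparison with vehicle or between times was fitted on its 10 libraries and all genes with edgeR 4.0.16 in R 4.3.3 (quasi-likelihood test, TMM, minimum count 10, minimum total 15, Benjamini-Hochberg at 0.05). Comparisons of 50 with 10 µM and interactions came from a fit of all 45 libraries. Counts of calls are also given over genes whose libraries all reached the filter's minimum in the groups compared. The SE of a log2 fold change is its size divided by the square root of the F statistic. Ratios of isoforms were tested on log2 counts with 0.5 added by exact permutation. FPKM served for levels per length. Scripts were tested on simulated data. Against vehicle, same-numbered libraries deviated together for 50 µM at 48 h and 10 µM at 24 and 48 h, with every correlation over 0.1. The lowest were 0.16, 0.115 and 0.113 in that order. These numbers were taken as pairs from the data, not from the labels. Fits given without mention of a block did not use these pairs. The replicate number entered only as a block among the alternatives.

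Per-library values are given for isoform pairs, 8 chosen genes and the 3 largest called changes in each comparison of 50 µM with vehicle, and for each muscle list up to 4 called genes of smallest p, with Pax7, Myod1, Myog, Ryr1 and Chrna1 named as identity markers. Other marker genes named were chosen after their values were seen. The members and lists were chosen with earlier results of these data known. Alternatives were DESeq2 1.42.0, other scaling, no filter or a stricter one (1 CPM in 5 libraries), a single fit of all libraries, the replicate number as a block, leaving out each library in turn and, added after seeing the data, epidermal expression as a covariate.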

Additional observations from a re-analysis of the deposited data

Results flagged for a closer look

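In 21 groups of 5 libraries 1 value stood far from the other 4, among 216 groups looked at. Chance gives about 1 in 20 for a single group. The 216 groups come from 23 genes and the share of counts in the same libraries. They are not independent, so the count of 21 cannot be set against that rate. In the 10 µM group of 48 h, replicate 2 was low in Myh8 (249 CPM), Myh3 (742), Mylpf (219), Myl4 (108), Tnnt3 (114), Tnnt2 (116), Tnnt1 (152), Tnnc1 (134) and Des (120 CPM), and in the members' share of counts (0.517%). In the 50 µM group of 48 h, replicate 1 was low in Myh8 (80.7 CPM), Myh7 (15.6) and Csrp3 (0.256). The other values were Mylpf at 186 CPM in replicate 4 of 50 µM at 24 h, Tnnt1 at 58.8 CPM in replicate 3 of 50 µM at 3 h, Neb at 85.1 CPM in replicate 1 of vehicle at 24 h, Des at 107 CPM in replicate 3 of 10 µM at 3 h and Myh1 at 7.20 CPM in replicate 5 of vehicle at 3 h. Tcap stood at 5.26 CPM in replicate 1 of 50 µM at 24 h and at 7.55 CPM in replicate 2 of vehicle at 48 h, and Ldb3 at 15 CPM in replicate 3 of vehicle at 3 h.

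By the interaction test, the effect of 50 µM differed between times in 12 members for 24 against 3 h and in 29 for 48 against 3 h (28 without Csrp3, which had 50 µM libraries under the filter's minimum), all lower at the later time.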

How the results depend on the processing

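Under the alternatives run, no estimate of a called gene changed sign. Members called with 50 µM at 24 h (26) ranged over 26 to 32 in other settings, with 32 under the replicate block, and over 21 to 33 with 1 library left out, and at 48 h (35) over 33 to 35 and 34 to 35. With 10 µM at 24 h the replicate block gave 10 calls where there were 0. Vehicle at 48 over 24 h (11) gave 18 without the filter on low counts, 25 with the block and 6 to 13 with 1 library left out. With 50 µM at 48 over 24 h (3) there were 5 without the filter, 5 with the block and 2 to 6 with 1 library left out. For 50 over 10 µM at 24 h (12) the block gave 19 and leaving out 1 library 2 to 13. The interaction of 24 and 3 h (12) gave 4 to 19 with 1 library left out and 18 with DESeq2, and that of 48 and 24 h (0) gave 1 without the filter and 1 with DESeq2, and 0 to 1 with 1 library left out. Isoform ratios between vehicle times past the threshold (12) were 0 under the block, whose sign test cannot go below 0.0625, and 11 to 13 with 1 library left out. Apart from these fewer samples, the cause of such changes was not tested. The numbers paired libraries in 3 comparisons, where the block changed no count but that with 10 µM at 24 h. Elsewhere not every same-numbered correlation was over 0.1, and the numbers were not taken as pairs. That rule does not show that libraries were unpaired. For 50 µM against vehicle at 24 h all 5 correlated best with their own number. The mean correlation was 0.185 for the same number, with a lowest of 0.0404, and -0.0462 for other numbers. For 10 µM against vehicle at 48 h, which met the rule, 2 correlated best with their own number. Depth limits Tnnc2, Ckm, Lmod2, Myh2 and Csrp3, which held few counts.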
